A study of Mus musculus with 12 samples.

Results

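The 9 genes described here encode ligands of the ERBB receptors: Nrg1, Nrg2, Nrg4, Areg, Ereg, Hbegf, Btc, Tgfa and Egf. They were chosen by gene symbol, and all 9 are among the 54532 genes of the deposited tables. Nrg1 was put at the head of the list because it had been seen higher in the tumors of bexarotene-fed mice, so its differences between groups are given as a description, with no test and no interval. The other 8 genes belong to the same ligand family.

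The ERBB receptors are cell surface tyrosine kinases that work in pairs. EGFR binds Egf, Tgfa and Areg, while Hbegf, Btc and Ereg bind both EGFR and ERBB4. The neuregulins bind ERBB3 or ERBB4, and ERBB2 (HER2), which has no soluble ligand of its own, is the preferred partner of the ligand-bound receptors. Most of these ligands are made as membrane proteins and are released when a protease cuts them near the membrane. In the mammary gland Areg is known as the ligand that carries the estrogen signal during ductal growth, and Nrg1 is known from mammary stroma, nerve and heart.

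The study fed 2 agonists of the retinoid X receptor (RXR), a nuclear receptor that pairs with many other nuclear receptors, to female MMTV-Neu mice. These mice carry a neu (Erbb2) transgene behind the mouse mammary tumor virus promoter, which is active in mammary epithelium, and every group carried it. Feeding began once a mouse bore a mammary tumor and lasted 10 days. The chow held no drug (control), MSU-42011 or bexarotene, each drug at 100 mg/kg of diet, and RNA from 4 tumors per group was sequenced after poly(A) enrichment. The mice's ages are not given in the sources used here. Total counts ranged from 16583400 to 25925000 per tumor over the 12 tumors. Each group was of 4 mice. The p-values of the fits below rest on the spread between these 12 tumors. The exact permutation p-values rest on the tumors of the 2 groups compared alone.

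Of the 10 luminal epithelial markers, which define the tumor tissue, 9 had group means of at least 13.3 CPM in every diet group, with Krt8 at 838 to 1013 CPM. Krt19 was the exception, at 0.894 CPM in control, 0.17 CPM in MSU-42011 and 7.63 CPM in bexarotene tumors. In an MSU-42011 tumor 3 counts correspond to 0.126 to 0.182 CPM. With 894 counts of Krt19 over the 12 tumors, most of its bexarotene mean can only have come from replicate 1, described next. Bexarotene replicate 1 stood apart from the other 11 tumors. Its median correlation with the others was 0.915, against at least 0.961 for every other tumor, and its 12 fibroblast markers summed to 12231 normalized CPM (counts scaled to the tumor's library size), against 115 to 992 in the other 11. Its macrophage (2430 CPM), endothelial (552 CPM), myoepithelial (312 CPM), adipocyte (94.2 CPM) and skeletal muscle markers (270.3 CPM) also had the highest sums of the 12 tumors, and its luminal epithelial markers the lowest, at 3479 CPM against 5383 to 7275 CPM. Results that involve this tumor are therefore given with and without it where it matters. In bulk tumor RNA, fewer cells of a type and less RNA per cell cannot be told apart.

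What the 9 ligands share is the EGF-like domain that binds the receptor, a fold held by 6 cysteines. The coding sequences of that domain are shown because they are what makes these genes a family, and because they show that the Nrg1 count pools transcripts with differing receptor-binding ends. They were read from GENCODE M21 transcripts on GRCm38, 5′ to 3′ on the coding strand, for the 7 members for which a sequence is given here, with the 6 cysteine codons in capitals. Domains were found by a fixed spacing of the cysteines. The label single domain form means that 1 distinct sequence of the gene matched that spacing. It does not count the EGF-like domains of the protein, since those with another spacing, in Egf for example, would not be found.
Nrg1, first variant: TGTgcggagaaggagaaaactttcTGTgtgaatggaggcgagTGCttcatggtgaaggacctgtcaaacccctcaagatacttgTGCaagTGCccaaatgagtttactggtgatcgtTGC
Nrg1, second variant: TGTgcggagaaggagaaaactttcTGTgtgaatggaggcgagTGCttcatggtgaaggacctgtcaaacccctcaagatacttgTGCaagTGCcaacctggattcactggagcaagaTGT
Nrg4, single domain form: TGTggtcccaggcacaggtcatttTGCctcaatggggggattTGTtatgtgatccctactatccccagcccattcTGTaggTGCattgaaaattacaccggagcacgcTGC
Tgfa, single domain form: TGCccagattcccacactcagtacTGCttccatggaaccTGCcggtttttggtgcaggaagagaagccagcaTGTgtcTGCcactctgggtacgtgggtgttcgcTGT
Egf, single domain form: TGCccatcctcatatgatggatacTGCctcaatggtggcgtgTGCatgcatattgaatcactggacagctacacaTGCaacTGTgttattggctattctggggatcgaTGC
Btc, single domain form: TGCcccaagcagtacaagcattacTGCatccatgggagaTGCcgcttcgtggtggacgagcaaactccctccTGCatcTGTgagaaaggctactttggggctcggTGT
Areg, single domain form: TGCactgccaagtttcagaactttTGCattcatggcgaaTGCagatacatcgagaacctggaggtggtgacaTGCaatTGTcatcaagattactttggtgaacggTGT
Ereg, single domain form: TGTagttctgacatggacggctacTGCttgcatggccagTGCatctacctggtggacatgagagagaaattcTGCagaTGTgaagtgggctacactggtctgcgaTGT

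In all 8 sequences 7 other codons lay between the first and second cysteine codons, 1 lay in the fourth of the 5 gaps and 8 lay in the last gap. The second gap had 5 codons in Nrg1, Nrg4 and Egf and 4 in Tgfa, Btc, Areg and Ereg. The third gap had 13 codons in Nrg1 and 10 in each of the other 6 members. The domains of Nrg1 lie between chr8:31837698-31849398 for the first variant and chr8:31838298-31849398 for the second, on the minus strand, and each is split over 2 coding exons. All 10 coding Nrg1 transcripts held the domain, 7 of them in the first variant and 3 in the second. The variants are identical up to the last but 1 cysteine codon and differ after it, a difference known as the beta and alpha forms of Nrg1. The other domains lie at chr9:55242177-55280969 (Nrg4, minus strand), chr6:86263200-86269960 (Tgfa, plus), chr3:129686322-129690850 (Egf, minus), chr5:91362421-91366197 (Btc, minus), chr5:91143614-91144364 (Areg, plus) and chr5:91088496-91089111 (Ereg, plus). Counts per gene do not separate transcripts, so the values below sum both Nrg1 forms.

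In the deposited tables Nrg1 (ENSMUSG00000062991) lies at chr8:31814551-32884029 on the minus strand. Areg (ENSMUSG00000029378), Ereg (ENSMUSG00000029377) and Btc (ENSMUSG00000082361) lie together with Epgn, a further ligand, within 375.5 kb of chromosome 5. Nrg2 (ENSMUSG00000060275) and Hbegf (ENSMUSG00000024486) lie within 498.1 kb of chromosome 18. Nrg4 (ENSMUSG00000032311), Tgfa (ENSMUSG00000029999) and Egf (ENSMUSG00000028017) are on chromosomes 9, 6 and 3. By GENCODE M21, exons of Nrg4 share 368 bases with Fbxo22 and 177 with Gm15625. Exons of Egf share 607 bases with Gm42697 and 500 with 6330410L21Rik, those of Ereg 141 with Gm19610 and those of Tgfa 118 with Gm43917, all on the opposite strand. The strand setting of the counting is not given in the sources used here, so reads on such bases cannot be assigned to a strand.

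Levels between genes were compared per length, in the deposited FPKM (fragments scaled to transcript length and library size). In control tumors Tgfa was the most abundant ligand, with 29.6 ± 10.6 FPKM (mean ± SD, n = 4 here and for each group below), followed by Egf with 22.2 ± 10.2 and Nrg2 with 19.6 ± 3.16. The ranges of these 3 neighbours overlapped. Btc followed with 4.55 ± 1.14, Hbegf with 1.54 ± 0.11, Nrg4 with 0.926 ± 0.289 and Nrg1 with 0.465 ± 0.0808, and from Nrg2 down to Nrg1 the ranges of neighbours did not overlap in control tumors. Areg and Ereg came last with 0.0465 ± 0.093 and 0.0254 ± 0.0443 FPKM, and their ranges overlapped. Tgfa, Egf and Nrg2 together made up 89.8 ± 3.69% of the summed ligand FPKM in control tumors, 91.3 ± 1.32% in MSU-42011 tumors and 86.9 ± 6.3% in bexarotene tumors (77.5% in replicate 1 and 89.6 to 90.5% in the other 3).

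The place of Nrg1 in this order differed between groups. It was the seventh of the 9 ligands by mean FPKM in control tumors, the sixth in MSU-42011 tumors with 1.47 ± 1.98 FPKM and the fourth in bexarotene tumors with 4.16 ± 1.36 FPKM. Tumor by tumor it was the seventh in MSU-42011 replicates 1, 3 and 4, as in control tumors, and the fourth in MSU-42011 replicate 2, on which that group's place rests. In the bexarotene tumors it was the fourth in replicates 2 and 4 and the place after in replicates 1 and 3, and its range overlapped that of Btc, the next ligand by mean with 3.30 ± 1.31 FPKM. Its share of the summed ligand FPKM was 0.61 ± 0.16% in control tumors, 1.37 ± 1.76% in MSU-42011 tumors (4.0% in replicate 2 and 0.309 to 0.583% in the other 3) and 4.27 ± 1.44% in bexarotene tumors. The length on which the order rests matters here. The FPKM values of Nrg1 correspond to a length of 2069 bases, while 10351 bases are listed for the gene. Per listed kilobase Nrg2 came before Egf, and Nrg1 was the seventh by mean in control and in bexarotene tumors. The latter place rested on Areg in bexarotene replicate 1, at 10.1 against at most 0.158 in the other bexarotene tumors. On this scale Nrg1 was above Nrg4 in all 4 bexarotene tumors, at 0.437 to 1.04 against 0.118 to 0.286. In control tumors its mean was below that of Nrg4, at 0.0929 against 0.165.

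**Figure D1:**
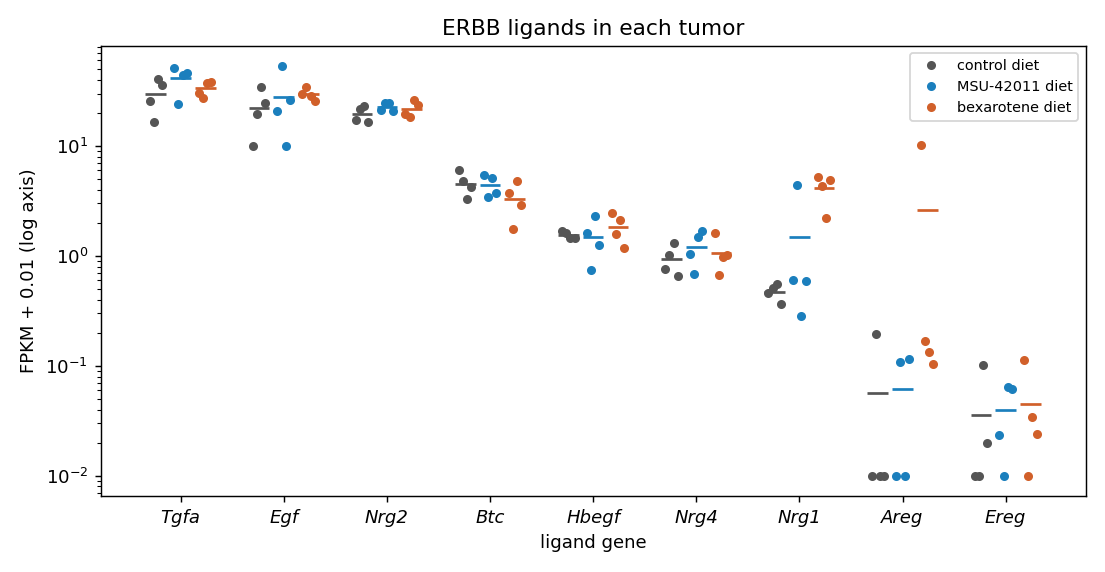
FPKM plus 0.01 on a log axis for the 9 ligand genes, ordered by their control mean, with 1 point per tumor and a bar at each group mean (4 tumors per diet group). Tgfa, Egf and Nrg2 sit above the other 6 ligands in each tumor, the bexarotene points of Nrg1 sit above its control points, and 1 bexarotene tumor is far above the rest in Areg.

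Nrg1, the neuregulin that binds ERBB3 and ERBB4, was low in control tumors. Its normalized level there was 0.949, 1.09, 1.12 and 0.776 CPM in replicates 1 to 4. In bexarotene tumors it was 10.3, 8.92, 4.41 and 10.9 CPM. All 4 bexarotene tumors were above all 4 control tumors, and bexarotene replicate 3 was the lowest of its group.

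In MSU-42011 tumors Nrg1 was 1.21, 9.21, 0.542 and 1.17 CPM. MSU-42011 replicate 2 lay within the range of the bexarotene tumors, and the other 3 tumors of that diet lay at or near the control level. The counts behind these values were 16 to 23 reads in control tumors, 91 to 278 in bexarotene tumors, 152 in MSU-42011 replicate 2 and 10 to 28 in the other MSU-42011 tumors. Counting error alone gave an exact Poisson 95% interval of 0.26 to 0.996 CPM for the lowest tumor and of 7.8 to 10.8 CPM for MSU-42011 replicate 2. Intervals of this kind cover counting error only.

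**Figure D2:**
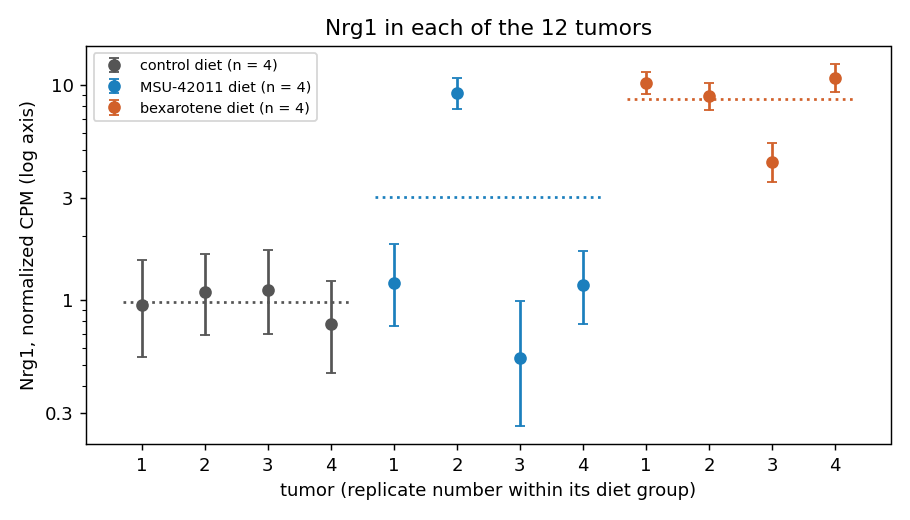
Nrg1 in normalized CPM on a log axis for each of the 12 tumors, grouped by diet, with exact Poisson 95% intervals as bars and the group mean as a dotted line. The 4 bexarotene tumors sit between 4.41 and 10.9 CPM, the 4 control tumors between 0.776 and 1.12 CPM, and MSU-42011 replicate 2 sits at 9.21 CPM, apart from the other 3 tumors of its group.

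As a description, the mean level of Nrg1 was 8.61 ± 2.92 CPM in bexarotene tumors and 0.984 ± 0.158 CPM in control tumors, a log2 fold change of 3.12 in edgeR. Leaving out each tumor in turn gave log2 fold changes between 2.99 and 3.34. Nrg1 was the only member of the 7 that passed the filter on low counts whose bexarotene and control tumors did not overlap. Across all 15504 genes tested, 2.03% did not overlap between these groups. Nrg1 was chosen for this difference, so nothing is read from that count.

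The same control values enter the comparison with MSU-42011, which is therefore also a description. The mean was 3.03 ± 4.13 CPM against 0.984 ± 0.158 CPM, a log2 fold change of 1.61, and the groups overlapped. Of the 3 MSU-42011 tumors above every control tumor, 2 were so by small amounts, at 1.21 and 1.17 CPM against at most 1.12 CPM. The difference in means rested on MSU-42011 replicate 2. Without that tumor the log2 fold change was -0.0083. Between the agonists, at the same dose and time, the log2 fold change of MSU-42011 against bexarotene was -1.51, and -3.13 without MSU-42011 replicate 2.

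The markers of other cell types were set beside Nrg1 tumor by tumor. The 12 fibroblast markers, headed by the collagen genes Col1a1, Col1a2 and Col3a1, summed to 12231, 992, 256 and 175 CPM in bexarotene replicates 1 to 4. They summed to 115 to 533 CPM in control tumors and 198 to 580 CPM in MSU-42011 tumors. Bexarotene replicates 3 and 4 had fibroblast sums inside the control range, at Nrg1 levels of 4.41 and 10.9 CPM. MSU-42011 replicate 2 had the lowest fibroblast sum of its group, at an Nrg1 level of 9.21 CPM. Without bexarotene replicate 1 the log2 fold change of Nrg1 against control was 3.03. The part of fibroblasts in the Nrg1 level was not tested.

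The 7 Schwann cell markers, included because nerve is a known source of Nrg1, summed to 961 to 1351 CPM in bexarotene tumors and 1115 to 1479 CPM in control tumors. Most of that sum was Sox10, at 983 CPM in bexarotene and 1077 CPM in control tumors on average, which mammary epithelial cells are also known to express.

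A lincRNA, Gm26578, lies within the Nrg1 gene at chr8:32008504-32015759, on the opposite strand. Its first exon, 32008504 to 32012568, contains the whole first exon of 8 of the 18 annotated Nrg1 transcripts (32009010 to 32009491, 482 shared bases). Gm26578 had 0, 1, 6 and 2 counts in control tumors, 3, 14, 0 and 3 in MSU-42011 tumors and 18, 22, 9 and 21 in bexarotene tumors. The tumors with the most counts were the 4 bexarotene tumors and MSU-42011 replicate 2, the same 5 tumors in which Nrg1 was high. With the strand setting not given, reads of Gm26578 and of an Nrg1 transcript on these shared bases cannot be told apart, and 7 of the 12 tumors had 6 or fewer counts.

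**Figure D3:**
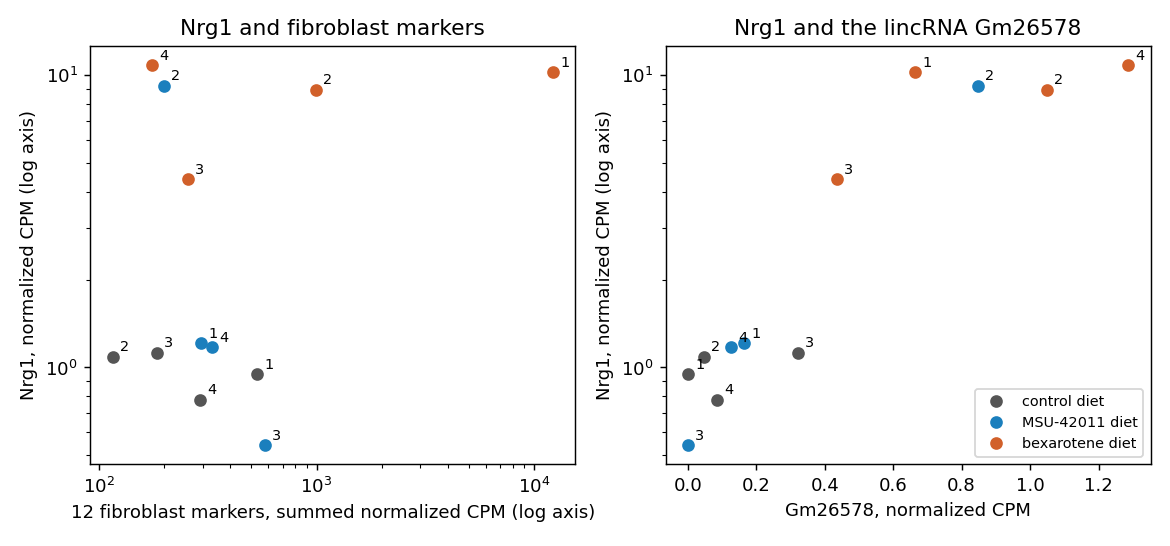
Nrg1 in normalized CPM (log axis) against the summed normalized CPM of 12 fibroblast markers (left, log axis) and against normalized CPM of the lincRNA Gm26578 (right), 1 point per tumor with its replicate number. On the left, bexarotene replicates 3 and 4 and MSU-42011 replicate 2 have high Nrg1 at fibroblast sums of 175 to 256 CPM, and on the right the 5 tumors with high Nrg1 are also the 5 with the highest Gm26578.

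Gm26578 was among the 5 genes whose pattern over the 12 tumors was most like that of Nrg1, ranked by Spearman rho on log2 CPM. Its rho was 0.916 (Pearson r 0.931, and 0.915 without the 2 tumors farthest from the median of Nrg1). The others were the pseudogenes Gm21811 (rho 0.923) and Gm12872 (0.902), Rwdd3 (0.895), which encodes a regulator of SUMO conjugation, and Rbm3os (0.895), an antisense RNA of the cold-shock gene Rbm3. Over the 11 tumors without bexarotene replicate 1, Gm26578 (0.918) was the only one of those genes still among the 5, beside Isca2 (0.945), an iron-sulfur cluster assembly factor, Smarcc2 (0.945), a chromatin remodeling subunit, Hnrnph3 (0.927), an RNA-binding protein, and Neil3 (0.918), a DNA glycosylase. Gm26578 entered this ranking through the tumors in which Nrg1 is also high, since its counts elsewhere were too low to pass the filter, so a high rho was partly fixed by the filter. The 12 points share 3 diets and fall into high and low Nrg1, so these values describe likeness in these tumors alone. Differences were small in several of them: Rwdd3 ranged from 7.84 to 9.47 CPM in control tumors and from 10.5 to 11.3 CPM in bexarotene tumors.

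None of the other members was called in any comparison in which it was tested. edgeR called 0 of the 15504 genes tested (0%) in each of the 3 comparisons at an adjusted p under 0.05. At an unadjusted p under 0.05 it had 309 genes (1.99%) in MSU-42011 against control, 998 (6.44%) in bexarotene against control and 612 (3.95%) between the agonists. None of the 6 tested members other than Nrg1 was among those genes. DESeq2 called 1, 6 and 25 genes in these comparisons (0.00338%, 0.0356% and 0.153% of those it tested), and limma on log2 FPKM called 0. None of the genes DESeq2 called was 1 of the other 8 members. At its defaults it gave no adjusted p for Areg in any comparison, nor for Ereg in either comparison with bexarotene, so these could not be called there. Areg and Ereg were left out of the edgeR fit by its filter on low counts, since too few tumors had enough reads of them.

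Tgfa, an EGFR ligand, was 51.9, 34.3, 79.2 and 73.6 CPM in control tumors, 98.7, 47.5, 84.2 and 89.9 CPM in MSU-42011 tumors and 57.6, 53.7, 72.7 and 79.7 CPM in bexarotene tumors. Of the MSU-42011 tumors 3 were above every control tumor, and replicate 2 was low, so the groups overlapped. The log2 fold change of MSU-42011 against control was 0.42 (standard error 0.271, interval -0.168 to 1.01, edgeR adjusted p = 1.00), and that of bexarotene against control was 0.14 (interval -0.448 to 0.73, adjusted p = 0.958).

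Egf, the founding EGFR ligand, was 24.9, 51.0, 84.2 and 63.3 CPM in control tumors. It was 51.1, 131, 23.8 and 64.0 CPM in MSU-42011 tumors and 70.9, 84.8, 69.0 and 67.7 CPM in bexarotene tumors. The bexarotene tumors lay close together (SD 7.92 CPM, against 24.8 in control and 45.8 in MSU-42011 tumors), and MSU-42011 replicate 2 was the highest of the 12. The log2 fold changes against control were 0.27 for MSU-42011 (interval -0.673 to 1.22) and 0.39 for bexarotene (interval -0.56 to 1.33), with edgeR adjusted p-values of 1.00 and 0.931. Without MSU-42011 replicate 2 the former was -0.27. The latter was 0.14 without control replicate 1 and 0.65 without control replicate 3.

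Btc, betacellulin, was 12.6, 10.3, 6.68 and 9.05 CPM in control tumors, 11.1, 7.09, 10.2 and 7.54 CPM in MSU-42011 tumors and 7.45, 3.58, 9.73 and 6.31 CPM in bexarotene tumors. It was the only member tested with a lower mean in bexarotene than in control tumors. The log2 fold change was -0.51 (standard error 0.301, interval -1.17 to 0.141, edgeR adjusted p = 0.854), and the groups overlapped. Leaving out 1 tumor gave values from -0.74 (without bexarotene replicate 3) to -0.30 (without bexarotene replicate 2).

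Hbegf, a ligand that also binds heparan sulfate, kept to 3.42 to 4.04 CPM in control tumors, while it ranged from 1.76 to 5.25 CPM in MSU-42011 tumors and from 2.94 to 5.57 CPM in bexarotene tumors. The means did not separate, with log2 fold changes against control of -0.14 (interval -0.837 to 0.563) for MSU-42011 and 0.19 (interval -0.508 to 0.886) for bexarotene. Without bexarotene replicate 1 the latter was 0.03. The edgeR adjusted p-values were 1.00 and 0.949.

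Nrg2, a neuregulin made by a gene separate from Nrg1, varied least of the 3 abundant ligands. It ranged from 23.0 to 30.2 CPM in control tumors, 27.0 to 32.6 CPM in MSU-42011 tumors and 24.2 to 34.0 CPM in bexarotene tumors. Its log2 fold change against control was 0.15 for MSU-42011 (interval -0.176 to 0.482) and 0.12 for bexarotene (interval -0.207 to 0.451), with edgeR adjusted p-values of 1.00 and 0.933. Nrg4, an ERBB4 ligand known from brown fat, had 12 to 45 counts per tumor. It ranged from 0.733 to 1.39 CPM in control, 0.727 to 1.76 CPM in MSU-42011 and 0.715 to 1.66 CPM in bexarotene tumors. Its log2 fold changes against control were 0.33 (interval -0.498 to 1.15) for MSU-42011 and 0.16 (interval -0.663 to 0.988) for bexarotene. The former was 0.13 without MSU-42011 replicate 4, and the latter was -0.0847 without bexarotene replicate 1. Exons of Nrg4 share 368 bases with Fbxo22 on the opposite strand, which had 7093 counts over all tumors against 283 of Nrg4. How far reads on those bases enter the Nrg4 counts was not tested.

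Areg, amphiregulin, was near 0 in 11 tumors and high in a single tumor. It had 0, 5, 0 and 0 counts in control tumors, 0, 2, 0 and 3 in MSU-42011 tumors and 319, 4, 3 and 2 in bexarotene tumors. The level in bexarotene replicate 1 was 11.8 CPM, against at most 0.237 CPM in the other 11 tumors. That is the tumor with the high stromal and muscle markers described above. Pgr, the progesterone receptor of hormone-sensing luminal cells, had 121 counts in the same tumor and 0 to 3 counts in the other 11, and Esr1, the estrogen receptor, was 25.3 CPM there against 9.83 to 26.8 CPM in the others. The third example of that list, the prolactin receptor Prlr, was 58.0 CPM there against 42.6 to 74.1 CPM in the others. Greb1, Foxa1 and Gata3 of the same list were named after their values were seen. Greb1 was 9.26 CPM in bexarotene replicate 1, from 251 counts, against at most 0.286 CPM in the other 11 tumors. Foxa1 was 3.58 CPM in bexarotene replicate 1, from 97 counts, against at most 0.572 CPM in the other 11. Gata3 was not raised in bexarotene replicate 1, at 243 CPM against 222 to 371 CPM in the other 11 tumors. All 10 hormone-sensing luminal markers summed to 517 CPM in bexarotene replicate 1 and to 292 to 448 CPM in the other 11. Of these, Ly6a, which is also known from stromal and endothelial cells and was named after its values were seen, was 170.3 CPM there against 3.96 to 16.6 CPM in the others, more than the gap between the sums. The part of these cell types in the Areg value was not tested. The exact two-sided permutation p for the mean of bexarotene against control was 0.114, where the smallest p that 4 against 4 tumors can give is 0.0286.

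Ereg, epiregulin, had at most 11 counts, also in bexarotene replicate 1, and at most 7 in any other tumor. At this depth no difference in Ereg was detectable, with group means of 0.104, 0.12 and 0.141 CPM in control, MSU-42011 and bexarotene tumors. Of the ligands outside the 9, Nrg3 had 0 counts in all 12 tumors, which by 3 counts allows up to 0.184 CPM in any tumor. Epgn, epigen, had 8, 5, 8 and 14 counts in control, 6, 4, 4 and 4 in MSU-42011 and 4, 4, 4 and 3 in bexarotene tumors. Epgn in bexarotene tumors was below every control tumor in CPM (exact two-sided permutation p = 0.0286, the smallest possible), at levels close to the limit of 3 counts and below the filter. DESeq2 did not call it in this comparison (log2 fold change -1.30, DESeq2 adjusted p = 0.679). Of all genes tested, 2.03% did not overlap between these groups.

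MSU-42011 replicate 2 had the highest Egf of all 12 tumors and the lowest Hbegf of the 12, at 1.76 CPM. It also had the lowest Tgfa, Btc and Nrg4 of the 4 MSU-42011 tumors, though for Btc the next tumor was close, at 7.54 CPM against 7.09 CPM. Of the members it was far from the other 3 tumors of its group by Dixon's test in Nrg1 only. Its median correlation with the other tumors, 0.965, was inside the range of the others. Over the 12 tumors, the Spearman rho of Nrg1 with the other 6 tested ligands was 0.713 for Egf, 0.336 for Nrg2, -0.04 for Nrg4, -0.09 for Tgfa, -0.238 for Hbegf and -0.615 for Btc. With the receptors it was 0.154 for Egfr, -0.322 for Erbb4, -0.469 for Erbb3 and -0.636 for Erbb2. These values are a description over tumors that share 3 diets.

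The agonists were compared with each other for the 6 tested members other than Nrg1, at the same dose and duration. The log2 fold changes of MSU-42011 against bexarotene were 0.41 for Btc (interval -0.247 to 1.06), 0.28 for Tgfa (-0.308 to 0.87), 0.16 for Nrg4 (-0.654 to 0.985), 0.03 for Nrg2 (-0.298 to 0.36), -0.11 for Egf (-1.06 to 0.832) and -0.33 for Hbegf (-1.03 to 0.373). Each edgeR adjusted p was 0.997, and none of the 6 had groups without overlap, against 1.17% of all genes tested. Over the fits that left out 1 tumor, Btc ran from 0.20 to 0.63, Tgfa from 0.17 to 0.46 and Hbegf from -0.61 to -0.11. Egf, Nrg2 and Nrg4 changed sign on leaving out 1 tumor, with the values given further below. The intervals leave room for changes of either sign in each of the 6, and are narrowest for Nrg2.

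**Figure D4:**
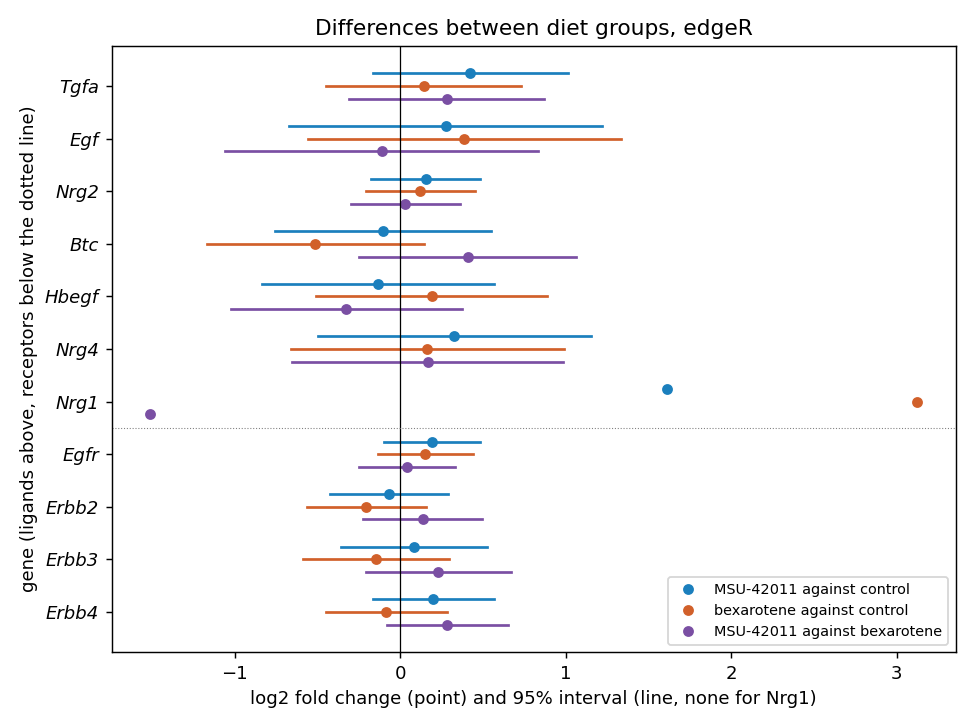
Log2 fold changes (points) from edgeR, with 95% intervals (lines) except for Nrg1, for the 7 tested ligands and, below the dotted line, the 4 ERBB receptors, in the 3 comparisons of diet groups. The intervals of the 6 ligands other than Nrg1 and of the 4 receptors include 0 in the 3 comparisons. Nrg1 is drawn without intervals, as a description, since it was chosen for its difference.

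The receptors for these ligands were all well measured. Erbb3, the neuregulin receptor with an impaired kinase, was 281 ± 42.3 CPM in control, 297 ± 57.4 CPM in MSU-42011 and 253 ± 76.5 CPM in bexarotene tumors. Erbb4, the other neuregulin receptor, was 23.5 ± 3.23, 27.0 ± 2.24 and 22.2 ± 5.1 CPM. Egfr was 73.3 ± 11.6, 83.7 ± 4.95 and 81.4 ± 11.6 CPM, and Erbb2 was 131 ± 9.69, 125 ± 34.5 and 114 ± 12.9 CPM. How far transcripts of the neu transgene were counted as Erbb2 was not tested. Of the 4 receptors 0 were called (edgeR adjusted p of 0.896 or above in the 3 comparisons), and none had groups without overlap. Of all genes tested, 1.97% did not overlap between MSU-42011 and control tumors, 2.03% between bexarotene and control tumors and 1.17% between the agonists.

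edgeR called no gene on the lists for the rest of the pathway, and the counts of calls given for these lists are its own. Among 14 measured genes of ligand shedding and maturation, 0 were called in any comparison, and the median log2 fold change was -0.04 for MSU-42011 and 0.03 for bexarotene against control, beside 0.00155 and 0.0296 over all genes tested. Without bexarotene replicate 1 the latter list median was -0.07. Adam17, the protease that releases most EGFR ligands, was 60.9 CPM in control, 66.9 CPM in MSU-42011 and 60.2 CPM in bexarotene tumors, and Adam10, the other main sheddase, was 106 CPM, 115 CPM and 112 CPM. Of 13 ERBB inhibitors 0 were called, with medians of 0.10 and 0.08 (0.0021 without bexarotene replicate 1). Lrig3, a membrane protein of a family that restrains ERBB receptors, was the only one without overlap. Its means were 21.3 CPM in MSU-42011 and 16.2 CPM in control tumors, beside 1.97% of all genes without overlap in that comparison. In bexarotene tumors its mean was higher still, at 22.9 CPM, though their range overlapped that of control tumors. Errfi1, an intracellular EGFR inhibitor, averaged 287, 281 and 301 CPM.

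Of 28 adapters and effectors 0 were called, with medians of -0.03 and -0.10. Grb2, the adapter that links the receptors to RAS, averaged 89.7, 87.1 and 90.3 CPM. Akt2 had no overlap between MSU-42011 and control tumors, with means of 88.0 and 96.9 CPM, and averaged 88.8 CPM in bexarotene tumors. Stat5b had none between MSU-42011 and bexarotene tumors, with means of 173 and 151 CPM, and averaged 161 CPM in control tumors. Of all genes, 1.97% and 1.17% had no overlap in those comparisons. Of 18 genes that respond to ERK, the kinase at the end of this cascade, 0 were called, with medians of 0.07 and 0.07. Dusp6, an ERK phosphatase that ERK itself induces, averaged 647 CPM in control, 706 CPM in MSU-42011 and 674 CPM in bexarotene tumors. Etv1, a transcription factor of the same list, was the only one of the 18 without overlap between bexarotene and control tumors. Its means there were 402 and 326 CPM, beside 2.03% of all genes without overlap, and it averaged 391 CPM in MSU-42011 tumors. Nothing is read from a single gene of such a list. Lrig3, Akt2, Stat5b and Etv1 were named after their values were seen.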

How the data were processed

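Gene symbols, counts and FPKM were taken from the 2 tables the authors deposited for the 12 tumors. The deposited counts are whole reads per gene and the deposited FPKM are the authors' length- and depth-scaled values of the same tumors. The submitters' processing notes name STAR 2.6.1d, featureCounts 1.5.0-p3 and DESeq2, with no role stated. The build is not given in the sources used here, and 98.3% of the gene identifiers shared with GENCODE M21 (GRCm38) had identical coordinates. The authors' tables of their own comparisons, which hold their fold changes and p-values, were not used.

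Groups came from the sample labels. Counts were tested with edgeR 4.0.16 in R 4.3.3 (quasi-likelihood F test, TMM scaling, filterByExpr, 1 mean per diet group, all 12 tumors in the fit) over 15504 of 54532 genes, with Benjamini-Hochberg adjustment and a threshold of 0.05. Normalized CPM were computed from the TMM-scaled library sizes. Exact two-sided permutation tests compared mean CPM, 4 tumors against 4. The scripts were tested on simulated data. Alternatives were DESeq2 1.42.0 and limma 3.58.1 on log2(FPKM + 1) or log2(FPKM + 0.1), other scaling and filters, a replicate block and leaving out each tumor.

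Genes were named by rule: the 9 members, Nrg3, Epgn, the 4 receptors, the first 3 genes of each list as examples, and the 5 genes most like Nrg1. Some example genes are not reported here. The members, the lists and the tests were chosen with earlier results of these data known.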

Additional observations from a re-analysis of the deposited data

Results flagged for a closer look

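Single tumors lay far from the other 3 of their diet group in 4 of 39 combinations of gene and group examined (Dixon's test, critical value 0.829 for 4 tumors), where chance flags about 1 in 20 for normally distributed values, a rate that does not hold for genes at or near 0 counts. Nrg1 in MSU-42011 replicate 2 was 9.21 CPM. Areg in bexarotene replicate 1 was 11.8 CPM. Areg in control replicate 2 was 0.237 CPM, from 5 counts, and Ereg in control replicate 3 was 0.374 CPM, from 7 counts, both close to the limit of 3 counts. The other 3 control tumors had 0 counts of Areg, so any count there would have stood apart.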

How the results depend on the processing

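The log2 fold changes of the 7 tested members in 3 comparisons gave 462 values under the alternatives, of which 447 kept their direction and, where a test applies, their side of the threshold. Nrg1 in comparisons with bexarotene was judged by its size alone. The 12 that changed sign each did so on leaving out 1 tumor, and the remaining 3, which moved in size, were all Nrg1 in comparisons with bexarotene, given as a description. Over the fits that left out 1 tumor, MSU-42011 against control ran from -0.0083 (without MSU-42011 replicate 2) to 1.96 for Nrg1, from -0.27 (without the same tumor) to 0.55 for Egf, from -0.42 to 0.0765 (without the same tumor) for Hbegf and from -0.25 to 0.0482 (without control replicate 1) for Btc. Bexarotene against control ran from -0.0847 (without bexarotene replicate 1) to 0.34 for Nrg4 and from -0.0538 (without control replicate 2) to 0.31 for Tgfa. MSU-42011 against bexarotene ran from -3.13 (without MSU-42011 replicate 2) to -1.16 for Nrg1, from -0.66 to 0.17 (without MSU-42011 replicate 3) for Egf, from -0.046 (without bexarotene replicate 2) to 0.12 for Nrg2 and from -0.024 (without MSU-42011 replicate 4) to 0.41 for Nrg4. Nrg1 in bexarotene against control was 1.77 on log2(FPKM + 1), where the added 1 is above its control level. Over all genes, leaving out each tumor gave 0 to 1 calls among the 3 groups and in bexarotene against control, with the 1 call on leaving out MSU-42011 replicate 2. That gene was Nrg1, which was chosen for its difference, so nothing is read from the call. DESeq2 called 5 genes among the 3 groups (Adamts8, Gm12872, Kif26b, Mmp9 and Prdm16), 6 in bexarotene against control, 25 in MSU-42011 against bexarotene and 1 (Prdm16) in MSU-42011 against control. Without its Cook's distance filter it called 11, 7, 41 and 7. The cause of these differences was not tested. Scaling moved the median of all genes by at most 0.00595 on the log2 scale. Deviations of tumors with the same replicate number correlated between -0.352 and 0.349, with 4 of 12 pairs over 0.1. Tumors with unlike numbers were not compared in this way, so these values do not decide whether the numbers pair tumors. With a replicate block 0 genes were called in each comparison, and Nrg1 in MSU-42011 against control was 0.94. Depth limits Areg, Ereg, Epgn and Gm26578, which had counts near the limit in most tumors.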

Other observations

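Ranked by Pearson r instead of Spearman rho, the genes closest to Nrg1 over the 12 tumors, named here after their values were seen, included 3 secretory genes beside Gm26578 and Rwdd3. Scgb1b27 (r 0.935, rho 0.846) and Scgb2b27 (r 0.908, rho 0.867) encode secretoglobins of the androgen-binding protein family on chromosome 7, and Car6 (r 0.896, rho 0.853) encodes a secreted carbonic anhydrase. Scgb2b27 ranged from 64.0 to 208 CPM in control tumors and from 247 to 579 CPM in bexarotene tumors. It was 630 CPM in MSU-42011 replicate 2, against at most 112 CPM in the other MSU-42011 tumors. Car6 ranged from 183 to 823 CPM in control tumors and from 1379 to 2470 CPM in bexarotene tumors. It was 3041 CPM in MSU-42011 replicate 2, against at most 594 CPM in the other 3. Leaving out bexarotene replicate 1 gave r of 0.932 for Scgb1b27, 0.927 for Scgb2b27 and 0.917 for Car6. The secretoglobin genes belong to a family of near-identical copies, so the assignment of reads among them, and with it their levels, is uncertain.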
